A study of Homo sapiens with 12 samples.

Results

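The 5 genes described here are *NR1H2* and *NR1H3*, which encode the liver X receptors LXRβ and LXRα, and their sterol-related targets *ABCA1*, *ABCG1* and *MYLIP*. They were taken by name from 23705 genes, after the NCBI gene numbers of the count table had been matched to symbols, and all 5 were among the 13522 genes that passed the filter on low counts. RNA was sequenced from A375 cells, an established line of human metastatic melanoma, after 24 h in 4 conditions. The cells received the DMSO vehicle, 5 μM rosiglitazone (RGZ), 2 μM T0070907, or 5 μM RGZ together with 2 μM T0070907 (the combination), with vehicle solvent in every condition. RGZ activates the nuclear receptor PPARγ and T0070907 blocks it, and the combination was included to separate effects that need PPARγ from other effects of RGZ. Each condition had 3 libraries, 1 from each of 3 independent experiments, and each library pooled the RNA of technical replicates. All libraries came from this 1 line, so the values describe no other melanoma.

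The liver X receptors are nuclear receptors that bind oxysterols and the cholesterol precursor desmosterol, and they act on DNA as pairs with a retinoid X receptor. LXRβ is made in most tissues, while LXRα is best known from liver, fat, gut and macrophages. When sterols accumulate, the receptors raise the transcription of the transporters ABCA1 and ABCG1, which move cholesterol out of the cell to lipoproteins, and of the ubiquitin ligase MYLIP (also called IDOL), which marks lipoprotein receptors for degradation. In macrophages, *NR1H3* is also described as a target of PPARγ.

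Total counts lay between 8319455 and 11375227 per library, and 3 counts, taken as the detection floor, corresponded to 0.258 to 0.371 CPM. CPM is a gene's count scaled to the library's total after TMM normalization. The floor and the Poisson interval for *ABCG1* cover only counting error. The melanocyte lineage markers *SOX10* and *MITF* had at least 1558 and 240 counts in every library and *S100B* at least 58, whereas the pigment gene *TYR* had 0 counts throughout and *PMEL* at most 13. Of 7 macrophage markers, *MARCO* had 0 counts and *PTPRC*, *ITGAM* and *CD163* at most 2 in every library, while *CD14* had 4 to 13, *CSF1R* 2 to 17 and *MSR1*, the highest of the list, 38 to 113. The summed level of the 7 was 8.35 to 14.4 CPM in vehicle libraries, 6.29 to 12 in RGZ libraries, 7.07 to 12.2 in T0070907 libraries and 6.18 to 12.1 in combination libraries. Of the pairs of libraries from the same experiment, the least alike held the first combination library. Its deviation from the mean of its condition correlated across genes with that of another library of experiment 1 by as little as 0.0793, against a median of 0.673 over the 18 pairs of libraries from the same experiment. A single pair does not show which of its libraries deviated.

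On GRCh38, *NR1H2* (NCBI gene 7376) lies on the plus strand at chr19:50329653-50382982 and *NR1H3* (NCBI gene 10062) on the plus strand at chr11:47248300-47269032. *ABCA1* (NCBI gene 19) lies on the minus strand at chr9:104781002-104928237, *ABCG1* (NCBI gene 9619) on the plus strand at chr21:42199689-42297244, and *MYLIP* (NCBI gene 29116) on the plus strand at chr6:16129125-16148248. These positions come from GENCODE 29, while the submitters' processing notes name hg19, so they locate the genes and not the counted reads. *NR1H3* shares 189 exon bases, 4.17% of its exon sequence, with *ACP2* on the opposite strand, and reads from these bases cannot be told apart without strand. No other member shares exon bases with a neighbour.

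LXR is known to bind repeats of the half-site AGGTCA spaced by 4 bases (DR4), and PPARγ the same half-site spaced by 1 base (DR1), each as a pair with a retinoid X receptor. RefSeq promoter windows (GRCh38.p14, 250 bases before to 50 after a start) were matched for 4 of the 5 genes, in 7 windows, and both strands were searched for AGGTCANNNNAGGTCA and AGGTCANAGGTCA with at most 1 mismatch in each half-site. A single DR4 match was found, in *ABCA1*, and 0 DR1 matches. The stretch around it is shown because *ABCA1* was the only one of the 3 target genes called in a comparison. It lies at chr9:104928202-104928231 on the minus strand, from 69 bases before the RefSeq start to 54 bases before it for the match in capitals, inside an exon of a GENCODE transcript with an earlier start.
ABCA1: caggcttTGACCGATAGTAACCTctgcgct
Read on the other strand, the match is AGGTTACTATCGGTCA, with 1 mismatch in each half-site. Among 35116 promoter windows of this length, 484 (1.38%) held a DR4 match by this rule and 618 (1.76%) a DR1 match. The match is a description of the letters, and their absence from the other windows says nothing of binding elsewhere in the genes.

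Of the receptor mRNAs, *NR1H2* was the more abundant in every condition. Per kb of the longest transcript in the annotation, the mean level with vehicle was 41.9 ± 2.13 CPM per kb for *NR1H2*, 9.61 ± 3.87 for *NR1H3*, 4.82 ± 1.29 for *MYLIP*, 0.701 ± 0.0825 for *ABCA1* and 0.549 ± 0.0635 for *ABCG1* (SD, n = 3 each). The ranges of neighbours in this order did not overlap with vehicle, but those of *ABCA1* and *ABCG1* overlapped in the other 3 conditions, and those of *NR1H3* and *MYLIP* overlapped with T0070907. Among the 12906 tested genes whose length was known, 86.5% lay per kb at or below *NR1H2*, 54.9% at or below *NR1H3*, 38.4% at or below *MYLIP*, 9.76% at or below *ABCA1* and 7.62% at or below *ABCG1*. Both transporters were therefore measured near the lower end of the expressed genes.

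**Figure D1:**
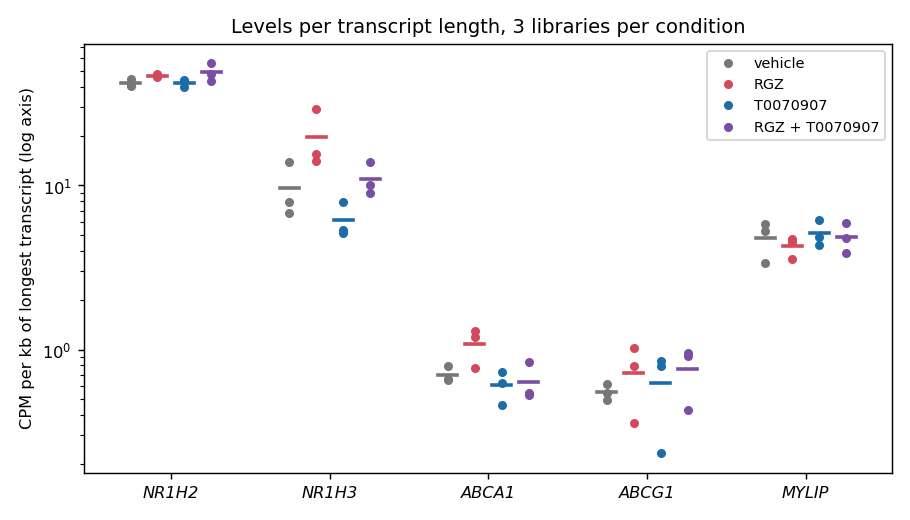
Level of the 5 genes in CPM per kb of the longest transcript (vertical log axis), with 1 point per library and a short line at the mean of the 3 libraries of each condition. *NR1H2* lies highest, at 39.8 to 55.4 CPM per kb, and both transporters lie lowest, between 0.233 and 1.3.

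*NR1H3*, the gene of LXRα, had the largest share of its variation between conditions of the 5 genes (70.5%, against 8.08% to 59.6%). With vehicle it had 18.6, 38.3 and 21.8 CPM in experiments 1, 2 and 3. RGZ libraries had 42.4, 79.9 and 38.9 CPM, T0070907 libraries 14.7, 21.7 and 14, and combination libraries 24.5, 38.3 and 27.4. The library of experiment 2 was the highest in each condition, RGZ libraries lay above all vehicle libraries, and the T0070907 range overlapped that of vehicle. Within experiments, the level with RGZ was 2.28, 2.09 and 1.79 times that with vehicle, and the level with T0070907 was 0.788, 0.565 and 0.645 of it. Of the variation in log2 CPM over the 12 libraries, 27.1% lay between experiments and 2.41% in neither.

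**Figure D2:**
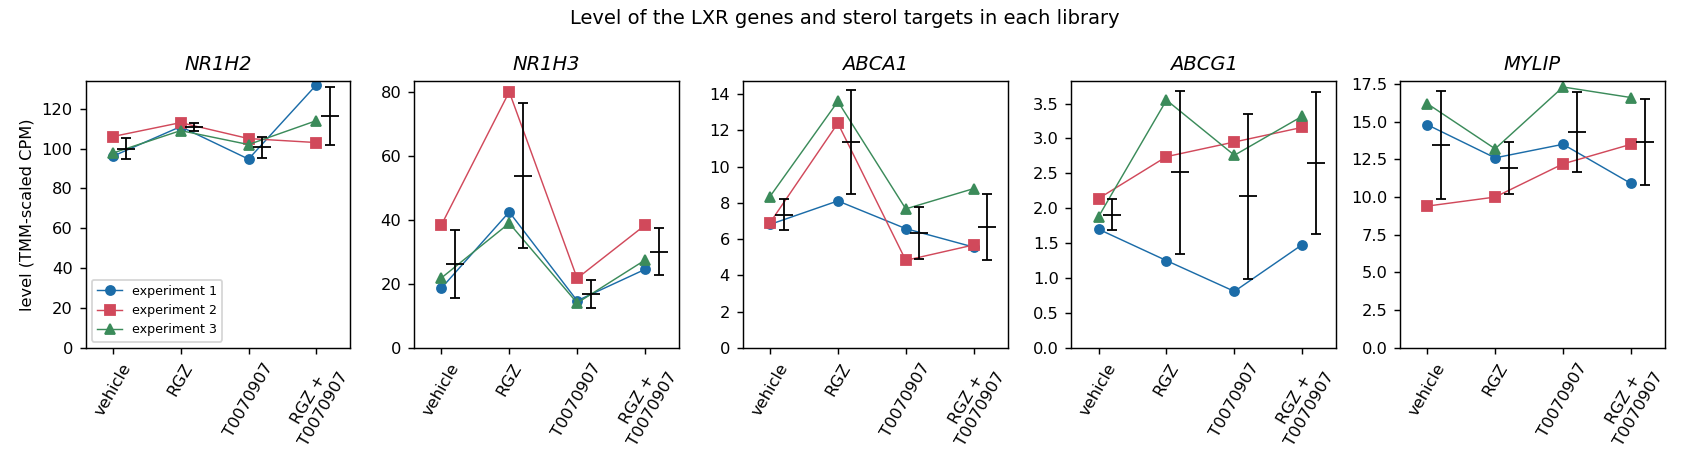
TMM-scaled CPM of each gene (vertical axis, from 0) in the 4 conditions, with 1 marker per library, lines joining libraries of the same experiment, and black bars for the mean ± SD of the 3 libraries. *NR1H3* was higher with RGZ than with vehicle in each experiment, and *ABCG1* was lowest in experiment 1 in each condition.

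*ABCA1*, the transporter that loads cholesterol onto lipid-poor apolipoprotein A-I, had 6.81, 6.9 and 8.35 CPM with vehicle. RGZ libraries had 8.11, 12.4 and 13.6 CPM, T0070907 libraries 6.58, 4.83 and 7.67, and combination libraries 5.56, 5.68 and 8.79. It was higher with RGZ than with vehicle in all 3 experiments, although the lowest RGZ library lay below the highest vehicle library. *ABCG1*, which passes cholesterol to mature HDL, was close to the limit of detection, with 7 to 35 counts per library. Its levels were 1.7, 2.14 and 1.88 CPM in vehicle libraries, 1.25, 2.74 and 3.55 in RGZ libraries, 0.809, 2.95 and 2.76 in T0070907 libraries, and 1.48, 3.16 and 3.32 in combination libraries. All 4 conditions overlapped, and experiment 1 was lowest in each of them. The lowest count, 7, has an exact 95% Poisson interval of 2.81 to 14.4.

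*MYLIP* had 14.8, 9.4 and 16.2 CPM in vehicle libraries, 12.6, 10 and 13.2 in RGZ libraries, 13.5, 12.2 and 17.3 in T0070907 libraries, and 10.9, 13.5 and 16.6 in combination libraries. The conditions overlapped, and the experiment held 57.7% of the variation against 12.1% for the condition. *NR1H2*, the gene of LXRβ, had 96.1, 106 and 97.7 CPM in vehicle libraries, 111, 113 and 109 in RGZ libraries, 94.7, 105 and 102 in T0070907 libraries, and 132, 103 and 114 in combination libraries. The RGZ libraries lay above the vehicle libraries, by 1.15, 1.08 and 1.12 times within experiments, and the exact two-sided permutation test gave p = 0.1, the smallest that 3 libraries against 3 allow. The highest *NR1H2* value, 132 CPM, came from the first combination library.

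*NR1H3* made up 18.3% ± 5.09 of the summed LXR mRNA per kb in vehicle libraries, 28.9% ± 7.93 in RGZ libraries, 12.6% ± 2.34 in T0070907 libraries and 18.6% ± 5.41 in combination libraries (SD, n = 3 each). By experiment the share was 14.5%, 24% and 16.3% in vehicle libraries, 25%, 38% and 23.7% in RGZ libraries, 11.9%, 15.2% and 10.7% in T0070907 libraries, and 13.9%, 24.5% and 17.3% in combination libraries. Within experiments it was higher under RGZ than under vehicle in 3 of 3, lower under T0070907 than under vehicle in 3 of 3, and lower under the combination than under RGZ in 3 of 3. RGZ and vehicle libraries overlapped narrowly when the experiments were set aside, and the exact two-sided permutation test, which did not use the pairing by experiment, gave p = 0.2 for that comparison.

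The comparison of RGZ with vehicle asked which genes respond to the agonist. *NR1H3* and *ABCA1* rose in the fit that included the experiment as a further term, the replicate block. They were not called by edgeR without it. For *NR1H3* the log2 fold change was 1.03 (SE 0.10, adjusted p = 1.91e-06) with the block and 1.03 (SE 0.32, adjusted p = 0.216) without it, by the quasi-likelihood test of edgeR with Benjamini-Hochberg adjustment. For *ABCA1* it was 0.62 (SE 0.16, adjusted p = 0.018) with the block and 0.63 (SE 0.25, adjusted p = 0.363) without it. Without the block, the *NR1H3* value ran from 0.633 without RGZ library 2 to 1.41 without vehicle library 2. The *NR1H3* call with the block held in 6 of 6 fits that left out 1 library, while that of *ABCA1* held in 3 of 6 and was lost without vehicle library 3, RGZ library 2 or RGZ library 3, with adjusted p-values up to 0.157.

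Without the block, 0 of the 5 genes were called for RGZ, beside 1.24% of all tested genes, and with it 2 were called, both higher, beside 9.3% of all tested genes (4.95% higher and 4.35% lower). At an unadjusted p under 0.05, 1421 genes passed without the block. DESeq2 without the block called *NR1H3* (adjusted p = 0.0399). The median log2 fold change of the 5 genes with the block was 0.38, beside -0.0096 over all tested genes. *ABCG1* had a log2 fold change of 0.38 with a 95% interval of -0.21 to 0.97 with the block, and was higher in 2 of 3 experiments. *MYLIP* had -0.17 (-0.46 to 0.12) and *NR1H2* 0.16 (-0.011 to 0.32), so for these 3 genes a modest change and no change cannot be told apart with 3 experiments. With 1 library left out in this fit, the value of *ABCG1* ran from 0.124 without vehicle library 3 to 0.658 without vehicle library 1, and that of *MYLIP* from -0.301 without vehicle library 2 to -0.0429 without vehicle library 1. In bulk RNA, a change in RNA per cell and a change in the make-up of the culture cannot be told apart. The summed level of 3 epithelial markers was 14.6 to 33.4 CPM in vehicle libraries and 6.62 to 16.8 in RGZ libraries, mostly from *KRT14* (47 to 429 counts per library over all conditions), while *EPCAM* had at most 5 counts. That of 4 fibroblast markers was 13.1 to 33.6 CPM in vehicle libraries and 9.64 to 21.6 in RGZ libraries, with *COL1A1* at 27 to 327 counts and *COL1A2* at 1 to 4. The sum of 3 adipocyte markers was 0.118 to 0.833 CPM in vehicle libraries and 0.416 to 3.54 in RGZ libraries, with *CIDEC*, a lipid droplet gene, at 0 to 31 counts over all conditions, *LEP* at no more than 1 count and *ADIPOQ* at 0 throughout. That of 8 melanocyte lineage markers was 281 to 498 CPM in vehicle libraries and 229 to 422 in RGZ libraries. The ranges of these 4 lists, taken without the pairing by experiment, overlapped between vehicle and RGZ. Their part in the results was not tested.

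**Figure D3:**
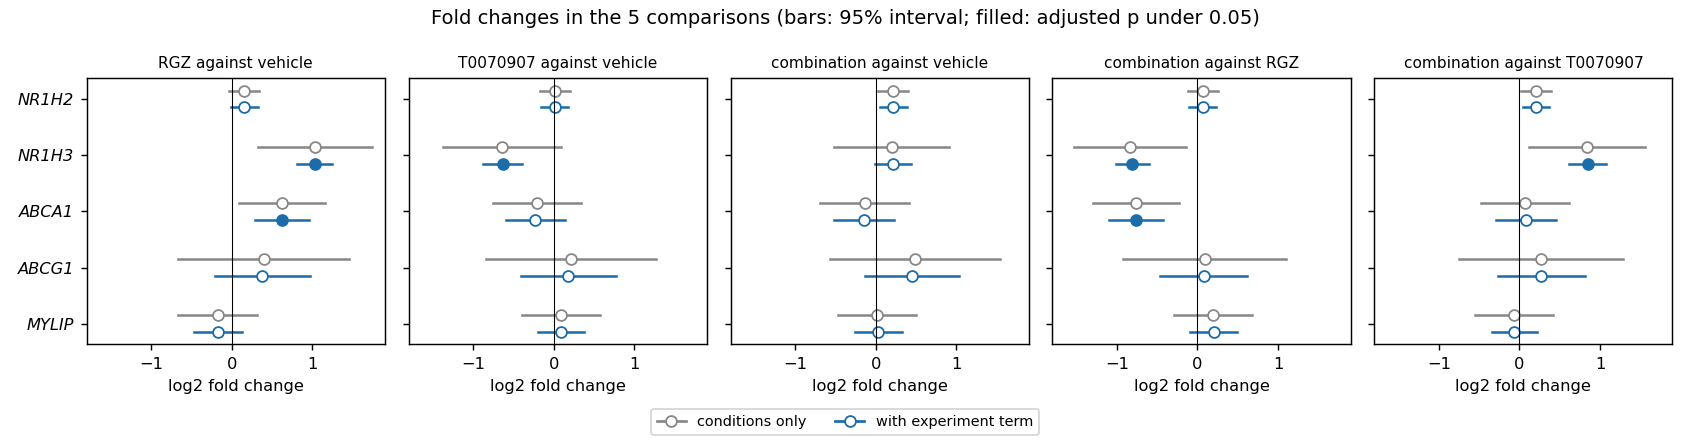
Log2 fold change of each gene (horizontal axis) in 5 comparisons, with bars for the 95% interval, in grey for the fit of conditions alone and in blue for the fit with the experiment term, and filled points for an adjusted p under 0.05. Filled points appear for *NR1H3* in 4 comparisons and for *ABCA1* in 2, all in the fit with the experiment term.

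T0070907 alone, which shows what the antagonist does without added agonist, lowered *NR1H3* in the fit with the block (log2 fold change -0.63, SE 0.11, adjusted p = 0.00913 by edgeR's quasi-likelihood test). The level was lower in all 3 experiments. This call held in 2 of 6 fits that left out 1 library and was lost without library 2 or 3 of vehicle or library 2 or 3 of T0070907, with adjusted p-values up to 0.134. Without the block the value was -0.64 (SE 0.34, adjusted p = 1), and it ran from -0.869 without T0070907 library 2 to -0.262 without vehicle library 2. *ABCA1* had a log2 fold change of -0.23 (95% interval -0.60 to 0.14, adjusted p = 0.761) with the block, which ran from -0.377 without T0070907 library 1 to -0.0746 without T0070907 library 2. Of the 5 genes, 0 were called without the block, beside 0.0074% of all genes (419 at an unadjusted p under 0.05), and 1 with it, beside 0.91%. This comparison shares its vehicle libraries with the one above, so both move with the same 3 controls.

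With the combination, *NR1H3* and *ABCA1* were lower than with RGZ alone and not detectably different from vehicle. Against RGZ, the log2 fold change with the block was -0.81 for *NR1H3* (SE 0.098, adjusted p = 2.31e-05) and -0.77 for *ABCA1* (SE 0.16, adjusted p = 0.00411), lower in all 3 experiments, and both calls held in 6 of 6 fits that left out 1 library. Without the block the adjusted p-values were 0.298 and 0.205. The counts were 0 of 5 genes without the block, beside 1.24% of all genes (1773 at an unadjusted p under 0.05), and 2 of 5 with it, beside 11.4%. This comparison uses the same RGZ libraries as the one against vehicle.

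Against vehicle, the combination gave log2 fold changes with the block of 0.22 for *NR1H3* (95% interval -0.0080 to 0.45, adjusted p = 0.25), -0.15 for *ABCA1* (-0.52 to 0.23, adjusted p = 0.67) and 0.22 for *NR1H2* (0.051 to 0.39, adjusted p = 0.139). In edgeR 0 of the 5 genes were called in either fit, beside 0% of all genes without the block and 0% with it, while 1438 and 2868 genes had an unadjusted p under 0.05. Without the second combination library, *NR1H3* (adjusted p = 0.0441) and *NR1H2* (adjusted p = 0.00318) passed in the fit with the block. With 1 library left out, *NR1H3* ran from 0.128 to 0.34 and *ABCA1* from -0.251 to -0.0727, the lower value of each without the third combination library and the higher without the second. Without the first combination library, the value of *NR1H2* was 0.099.

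RGZ given on top of T0070907 shows how far the agonist still acted with the antagonist present. *NR1H3* lay above T0070907 alone with the combination, by 1.67, 1.77 and 1.95 times within experiments and by 0.85 on the log2 scale with the block (SE 0.11, adjusted p = 2.3e-04, called in 6 of 6 fits that left out 1 library). Without the block the value was 0.84 (adjusted p = 0.284). *ABCA1* had 0.08 (95% interval -0.29 to 0.45, adjusted p = 0.798) with the block. Of the 5 genes, 0 were called without the block, beside 0.037% of all genes (2028 at an unadjusted p under 0.05), and 1 with it, beside 8.76%. *NR1H2*, at 0.21 (adjusted p = 0.1), passed when the second combination library was left out (adjusted p = 0.00245). It was called in only 1 of 6 fits with the block that left out 1 library. Its value in them ran from 0.0868 to 0.316, with adjusted p-values up to 0.5.

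Whether T0070907 changed the RGZ effect was tested directly as an interaction. For *NR1H3* it was -0.18 (95% interval -0.50 to 0.14, adjusted p = 0.75) with the block, and for *ABCA1* -0.54 (-1.04 to -0.035, adjusted p = 0.481). Of the 5 genes, 0 were called in either fit, beside 0% of all genes without the block (406 at an unadjusted p under 0.05) and 0.281% with it (1324). With 1 library left out, these values with the block ran from -0.279 (without RGZ library 3) to -0.0537 (without combination library 2) for *NR1H3* and from -0.695 (without RGZ library 1) to -0.362 (without RGZ library 2) for *ABCA1*. A smaller RGZ effect in the presence of T0070907 was thus not shown for either gene.

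Of 16 other described LXR targets reported here, 10 passed the filter, and with the block 4 were higher with RGZ (*LPCAT3*, *APOC1*, *LPL* and *SCD*), beside 4.95% of all tested genes, with a median log2 fold change of 0.054 over the 10. Without the block 2 were called, *LPCAT3* and *APOC1*, beside 1.24% of all tested genes. *LPCAT3*, an acyltransferase that builds polyunsaturated phospholipids, had 68.2 to 75.7 CPM with vehicle and 132 to 145 with RGZ, which did not overlap. Its log2 fold change was 0.96 (SE 0.08, adjusted p = 2.69e-04) without the block and 0.96 (SE 0.064, adjusted p = 2.33e-08) with it. With the block *LPCAT3* was lower with T0070907 than with vehicle (-0.50, adjusted p = 8.71e-04), beside 0.91% of all genes called. Without the block 0 of the 10 targets were called for T0070907, beside 0.0074%.

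*APOC1*, an apolipoprotein, rose by 1.07 (adjusted p = 0.0235 without the block and 3.57e-04 with it), and without the block 5 of 6 fits that left out 1 library lost the call. *LPL*, the lipoprotein lipase, which is also a described PPARγ target, had 0.75 (adjusted p = 0.0079) with the block and lost its call without vehicle library 3 (adjusted p = 0.0719). *SCD*, the stearoyl-CoA desaturase, had 0.39 (adjusted p = 1.36e-04) with the block.

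*SREBF1*, which encodes the lipogenic factor SREBP-1 and is among the best known LXR targets, had a log2 fold change of -0.12 for RGZ (adjusted p = 0.297 with the block) and was lower in all 3 experiments. The combination exceeded RGZ alone (0.37, adjusted p = 8.36e-04 with the block). The values for RGZ with the block were 0.039 for *FASN*, 0.068 for *ELOVL5*, -4.0e-04 for *PLTP*, 0.0021 for *APOE* and -0.42 for *SMPDL3A*, none of them called. With the block, *LPCAT3* (-0.83), *LPL* (-0.83) and *APOC1* (-0.61) were lower with the combination than under RGZ, and *LPCAT3* (0.63) and *SCD* (0.36) were higher than under T0070907. *LPCAT3* was also called without the block in both comparisons (adjusted p = 9.13e-04 and 0.0173). *APOE* had 6 to 19 counts per library. *ABCG5*, *ABCG8*, *ABCG4*, *CETP*, *MLXIPL* and *MERTK* had too few counts to be tested, at most 11 in any library.

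**Figure D4:**
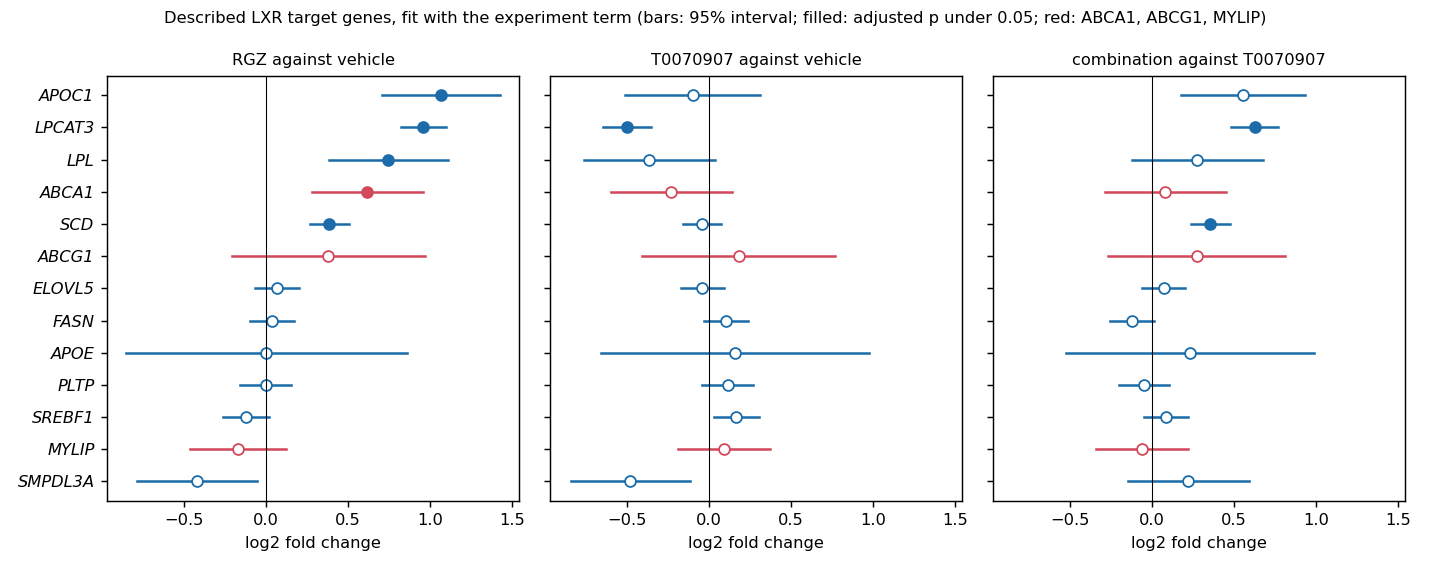
Log2 fold change (horizontal axis) of 13 described LXR target genes in 3 comparisons from the fit with the experiment term, with bars for the 95% interval, filled points for an adjusted p under 0.05, and *ABCA1*, *ABCG1* and *MYLIP* in red. For RGZ against vehicle 5 genes have filled points, all above 0, among them *ABCA1*.

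Among 7 partners and coregulators of LXR, all tested, 1 was called for RGZ with the block, beside 9.3% of all tested genes, and 0 without it. *RXRG*, a retinoid X receptor, fell by 1.23 on the log2 scale (SE 0.21, adjusted p = 8.24e-04 with the block, 0.641 without it), with 3.81 to 14.6 CPM in vehicle libraries and 1.87 to 6.6 in RGZ libraries. The more abundant *RXRA* and *RXRB* had -0.075 and -0.0076, the corepressor gene *NCOR1* 0.048, the coactivator genes *NCOA1* and *NCOA6* 0.0063 and -0.15, and *GPS2*, a corepressor subunit, 0.0030. In the other comparisons with the block, *RXRG* was higher (1.15, adjusted p = 0.00147) and *NCOR1* lower (-0.33, adjusted p = 0.0121) with the combination than with RGZ, and *NCOA6* was lower with the combination than with T0070907 (-0.35, adjusted p = 0.0207). With the block 11.4% of all genes were called against RGZ and 8.76% against T0070907. Without it 0 of the 7 were called in either comparison, beside 1.24% and 0.037% of all genes.

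Receptors that MYLIP marks for degradation were tested as mRNA, on which MYLIP is not known to act. *LRP8* had 0.12 (adjusted p = 0.335) and *VLDLR* 0.010 (adjusted p = 0.981) for RGZ with the block, so 0 of 2 were called, beside 9.3% of all tested genes. *LRP8* (-0.24, adjusted p = 0.0428) was lower with the combination than with RGZ in that fit, where 11.4% of all genes were called.

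Of 6 genes that set the supply of LXR ligands, 2 passed the filter, and *CH25H*, the cholesterol 25-hydroxylase, had 0 counts in all 12 libraries. *CYP27A1*, a sterol hydroxylase, had -0.36 and *HSD3B7* 0.27 for RGZ with the block, neither called.

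Of 15 targets of SREBP-2, the factor that raises cholesterol synthesis and uptake when sterols are low, 14 were tested and with the block 2 were higher with RGZ, *FDFT1* (0.35, adjusted p = 9.27e-04), the squalene synthase, and *DHCR7* (0.29, adjusted p = 0.00589), which makes cholesterol from its direct precursor. Of 16 other genes of sterol transport and storage, 15 were tested and 3 were higher. Both counts stand beside 4.95% of all tested genes that were higher with RGZ in this fit. *GRAMD1B*, which carries sterol from the plasma membrane to the endoplasmic reticulum, had 0.87 (adjusted p = 6.88e-05), *NPC2*, a lysosomal sterol carrier, had 0.56 (adjusted p = 3.09e-05), and *SCARB1*, the HDL receptor, had 0.25 (adjusted p = 0.0204), each with the block. The *SCARB1* call held in 2 of 6 fits that left out 1 library and that of *DHCR7* in 5 of 6. Without the block 0 genes of both lists were called. In the other comparisons with the block, where 11.4% of all genes were called against RGZ and 8.76% against T0070907, *IDI1* (0.25) and *MVD* (0.48) were higher with the combination than under RGZ, and *IDI1* (0.30), *INSIG1* (0.28), *FDFT1* (0.24) and *FDPS* (0.21) were higher than under T0070907, all of them genes of sterol synthesis or its control. Of the transport and storage genes, *GRAMD1B* (-0.95), *NCEH1* (-0.42) and *NPC2* (-0.30) were lower with the combination than under RGZ. Of these, *GRAMD1B* was also called without the block (adjusted p = 0.0453). *NPC2* (0.38) and *STARD3* (0.26) were higher with the combination than under T0070907.

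Of 7 described PPAR targets, *FABP4*, a fatty acid carrier, and *CD36*, a fatty acid transporter, were at or under the detection floor without added agonist and passed the filter only through RGZ libraries, so they are given as counts. *FABP4* had 1 count in each vehicle library, 0 to 3 in T0070907 libraries, 1648 to 3513 in RGZ libraries and 9 to 25 in combination libraries. *CD36* had 0 to 2, 0, 28 to 43 and 0 to 3 counts in the same order. The other 5 rose with RGZ in both fits, with log2 fold changes with the block of 6.32 for *ANGPTL4* (30 to 71 counts in vehicle libraries), 2.73 for *PDK4*, 2.62 for *PLIN2*, 0.78 for *CPT1A* and 0.50 for *ACADVL*. The value of *NR1H3*, 1.03, lay between those of *PLIN2* and *CPT1A*. Among all tested genes, 9.3% were called for RGZ with the block and 1.24% without it. With T0070907, 4 of these 5 passed the test as lower with the block (*PDK4*, *PLIN2*, *CPT1A* and *ACADVL*, -0.45 to -1.79), beside 0.91% of all genes, and 0 without it, beside 0.0074%. The remaining gene, *ANGPTL4*, had the lowest value, -3.16, and missed the threshold (adjusted p = 0.083 with the block), with 4 to 11 counts in T0070907 libraries, all below those of vehicle. All 5 were lower with the combination than under RGZ in both fits, beside 11.4% of all genes with the block and 1.24% without it. Against T0070907 the combination was called higher for 5 with the block, beside 8.76%, and for 1, *PLIN2*, without it, beside 0.037%, where the other 4 had positive log2 fold changes that missed the threshold.

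By the mean absolute difference of log2 ratios to the vehicle library of the same experiment, over 9 treated libraries and 13184 genes, the genes most like *NR1H3* were *PLAAT3* (0.0982) and *ECH1* (0.105), against a median of 0.649. Those most like *ABCA1* were *ITPRIP* (0.142) and *PDK1* (0.146), with a median of 0.383. *NR1H2* was closest to *RPL19* (0.0274) and *EIF6* (0.0344), *MYLIP* to *EVI5* (0.102) and *MX1* (0.104), and *ABCG1* to *XG* (0.203) and *DORIP1* (0.205). No other of the 5 genes was among these. *PLAAT3*, a phospholipase and acyltransferase, had geometric mean ratios to vehicle of 2.28 for RGZ, 0.643 for T0070907 and 1.21 for the combination, beside 2.03, 0.663 and 1.18 for *NR1H3*.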

How the data were processed

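RNA of 12 A375 samples was made into TruSeq libraries and sequenced on an Illumina HiSeq. The authors deposited raw counts per gene, without normalization. The submitters' processing notes name hg19, and the aligner, counter, annotation and use of strand are not given in the sources used here. Samples were grouped by their labels. The table held 0 columns of other samples.

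Tests used edgeR 4.0.16 in R 4.3.3 (TMM, filterByExpr, quasi-likelihood test, 4 conditions, all 12 libraries, Benjamini-Hochberg adjustment over 13522 genes, threshold 0.05), which was tested on simulated data. Standard errors are the log2 fold change divided by the square root of F. The labels number the libraries of each condition 1 to 3. These numbers were taken as the 3 independent experiments and pair the libraries. Deviations of same-numbered libraries from their condition means correlated over 0.1 in 17 of 18 pairs (0.0793 to 0.758). A fit with this replicate block is therefore given beside each result whose call it changes. Alternatives were DESeq2 1.42.0, its size factors in edgeR, no filter, at least 10 counts in every library, and leaving out each library.

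The members and lists were chosen with earlier results of these data known. Named were the 5 members, list genes called in a comparison, all genes of the lists of partners, MYLIP substrates and other LXR targets, the 2 genes most like each member (mean of at least 1 CPM), and genes that overlap a member. Some list genes are not reported here and were left out of the lists and their counts, though not out of the fits. The alternatives for list genes were added after seeing the data. Promoter sequences are from RefSeq (GRCh38.p14).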

Additional observations from a re-analysis of the deposited data

Results flagged for a closer look

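The effect of RGZ differed with and without T0070907 for the listed gene *PLIN2*, a lipid droplet gene among the PPAR targets, in edgeR's quasi-likelihood test of the interaction with the replicate block. The interaction was -1.10 on the log2 scale (SE 0.18, adjusted p = 0.0301), with mean levels of 386 CPM in vehicle libraries, 2370 in RGZ libraries, 176 in T0070907 libraries and 518 in combination libraries. The call held in 6 of 12 fits that left out 1 library (adjusted p 1.12e-06 to 0.13), and without the block the interaction was not called (adjusted p = 1).

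For 2 further genes RGZ moved the level one way without T0070907 and the other way with it in each of the 3 experiments. *SMPDL3A*, a phosphodiesterase gene, had an interaction of 0.64 (adjusted p = 0.402 with the block) and *MVD*, of the mevalonate pathway, one of 0.34 (adjusted p = 0.391 with the block), so the test of the difference did not pass for either.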

How the results depend on the processing

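The number of the 5 genes called rested on the replicate block. With it, 2 were called for RGZ, 1 for T0070907, 2 for the combination against RGZ and 1 for the combination against T0070907, where edgeR without it called 0, and DESeq2 called 1 for RGZ. The block changed no other call of a member. DESeq2 gave no adjusted p for most members in the combination against T0070907, and *ABCG1* could not be tested with at least 10 counts in every library. Under each alternative that kept all libraries, 0 log2 fold changes of members changed sign. With the block, leaving out 1 library gave 1 to 2 called genes for RGZ, 0 to 1 for T0070907, 0 to 2 for the combination against vehicle and 1 to 2 for the combination against T0070907.

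Leaving out 1 library changed the sign in 30 of 210 values without the block and 20 of 210 with it, all of them values that were not called. Without the block, the combination against RGZ ranged from -0.237 to 0.431 for *ABCG1* and -0.0352 to 0.146 for *NR1H2*. The combination against T0070907 ranged from -0.178 to 0.236 for *ABCA1*, -0.0945 to 0.544 for *ABCG1* and -0.236 to 0.0919 for *MYLIP*. The combination against vehicle ranged from -0.179 to 0.177 for *MYLIP* and -0.0131 to 0.578 for *NR1H3*. The interaction ranged from -0.49 to 0.215 for *ABCG1*, -0.0638 to 0.307 for *MYLIP*, -0.0467 to 0.134 for *NR1H2* and -0.567 to 0.206 for *NR1H3*. T0070907 against vehicle ranged from -0.0492 to 0.578 for *ABCG1*, -0.111 to 0.247 for *MYLIP* and -0.0215 to 0.0536 for *NR1H2*.

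With the block, the combination against RGZ ranged from -0.0236 to 0.275 for *ABCG1* and -0.058 to 0.172 for *NR1H2*, and the combination against T0070907 from -0.0729 to 0.225 for *ABCA1* and -0.2 to 0.0848 for *MYLIP*. The combination against vehicle ranged from -0.104 to 0.185 for *MYLIP*. The interaction ranged from -0.379 to 0.152 for *ABCG1*, -0.0287 to 0.257 for *MYLIP* and -0.0699 to 0.159 for *NR1H2*. T0070907 against vehicle ranged from -0.0735 to 0.449 for *ABCG1*, -0.0407 to 0.215 for *MYLIP* and -0.0301 to 0.0738 for *NR1H2*. The cause was not tested. *ABCG1* had the lowest counts of the 5 genes, 7 to 35 per library, and 72% of its variation lay between experiments. Each condition had 3 libraries.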
